A study of Mus musculus with 60 samples.

Results

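Klf7, Fam126b, Nif3l1, Ppil3 and Cavin2 lie on mouse chromosome 1, the chromosome that carries the myostatin gene Mstn, and were followed probe set by probe set in Mstn-null and wild-type mice. All probe sets of the 2 chips whose platform annotation names 1 of these 5 genes were taken, which gave 15 of the 45037 probe sets tested, for 5 of 18193 gene symbols: 4 for Klf7, 4 for Fam126b, 2 for Nif3l1, 2 for Ppil3 and 3 for Cavin2. The genes were selected on measured values, namely the difference of a probe set of theirs between the genotypes in embryos of 13.5 days post coitum (d.p.c.), except Cavin2, for which the age behind its choice is not known. The 13.5 d.p.c. values, and those of Cavin2 at every age, are therefore described without a test. The other 12 probe sets were tested in the pools of 17.5 d.p.c. and of postnatal day 35 (d35), although results at these ages were also known when the genes were listed.

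Mstn-null mice and wild-type mice, both given as C57BL/6J, supplied RNA of the entire embryo (13.5 d.p.c.), of the embryo's hindquarters (17.5 d.p.c.) and of the pectoralis muscle (d35, that is, 35 days of age). Each genotype and age had 5 pools of RNA from 3 animals, and every pool went onto the chips MOE430A (chip A) and MOE430B (chip B), 60 arrays in all. Mstn-null mice lack functional myostatin, and how the allele was made and how far it was backcrossed are not given in the sources used here. In every Mstn-null pool the Mstn genotype and any flanking chromosome 1 sequence inherited with the allele come together, so their parts in a difference at a linked gene cannot be told apart. Mstn itself was not analysed here, since 0 probe sets carry its symbol. Tissue and age change together across the 3 stages.

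Myostatin is a secreted member of the transforming growth factor beta family that restrains the growth of skeletal muscle and signals through SMAD proteins. A 3' expression array reads a gene through several probe sets, each a group of short probes near the 3' end of a transcript, so a change of the whole transcript moves all of them. A change of a single isoform, of a polyadenylation site or of a base under the probes can move a single probe set. Klf7 is a Krüppel-like zinc-finger transcription factor that binds GC-rich and CACCC sequences and is known for its role in the growth of nerve axons and as an inhibitor of fat cell differentiation in cultured preadipocytes. Fam126b, also called Hycc2, is a relative of hyccin and belongs to the complex that holds a phosphatidylinositol 4-kinase at the plasma membrane. Ppil3 is a cyclophilin-type peptidyl-prolyl isomerase that has been found in human spliceosomes. Nif3l1 is a conserved protein named after a yeast interaction partner. Cavin2 is a coat protein of caveolae, the small pits of the plasma membrane that are abundant in endothelial cells, fat cells and muscle.

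In the gene order of RefSeq (GRCm38.p6), Cavin2 lies on 1 side of Mstn, 10 measured genes away, and the others lie on the opposite side. Ppil3 is 37 measured genes from Mstn, Nif3l1 38, Fam126b 41 and Klf7 78. Ppil3 and Nif3l1 are next to each other, on opposite strands, and their annotated starts are 335 bases apart and point towards each other, so that the 5' ends of these genes overlap. The lead probe set of a gene is here the one with the largest difference between genotypes at 13.5 d.p.c. The promoter windows of Klf7, whose lead gave the largest difference of the 5 genes, and of this overlapping pair are printed 5' to 3' on the strand of each gene, from 250 bases before to 50 bases after the annotated start. Capitals mark the GC box GGGCGG and the CACCC box on either strand (GGGTG on the strand shown), the kinds of sequence that Krüppel-like factors bind.
Klf7 promoter, chr1:64121340-64121639, minus strand: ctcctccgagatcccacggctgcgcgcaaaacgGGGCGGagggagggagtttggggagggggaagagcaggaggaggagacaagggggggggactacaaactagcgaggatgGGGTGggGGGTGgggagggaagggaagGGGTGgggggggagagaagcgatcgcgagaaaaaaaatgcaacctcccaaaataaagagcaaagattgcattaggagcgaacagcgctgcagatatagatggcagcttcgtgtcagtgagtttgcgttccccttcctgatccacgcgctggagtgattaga
Nif3l1 promoter, chr1:58444901-58445200, plus strand: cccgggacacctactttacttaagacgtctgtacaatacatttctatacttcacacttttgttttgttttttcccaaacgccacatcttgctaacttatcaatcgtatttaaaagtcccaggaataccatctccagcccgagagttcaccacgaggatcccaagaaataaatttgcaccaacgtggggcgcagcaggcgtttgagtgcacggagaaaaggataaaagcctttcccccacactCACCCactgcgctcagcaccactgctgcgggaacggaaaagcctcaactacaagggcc
Ppil3 promoter, chr1:58445437-58445736, minus strand: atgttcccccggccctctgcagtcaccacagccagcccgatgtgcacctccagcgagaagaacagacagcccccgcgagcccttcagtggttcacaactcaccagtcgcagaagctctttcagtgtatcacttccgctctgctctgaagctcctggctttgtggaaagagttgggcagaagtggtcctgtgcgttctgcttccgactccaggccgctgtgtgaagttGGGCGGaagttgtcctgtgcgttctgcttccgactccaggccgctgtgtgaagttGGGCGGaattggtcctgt
The Klf7 window held 1 GC box and 3 CACCC boxes, the Nif3l1 window 1 CACCC box and the Ppil3 window 2 GC boxes. Over all 32851 windows of this length, 35.7% held a GC box and 57.5% a CACCC box, so single matches are common. Fam126b has 2 annotated starts, with 0 and 2 CACCC boxes in their windows, and Cavin2 has 1 CACCC box. The position of the probes within each transcript was not used here.

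Array medians matched within a chip and age, for example 8.05 to 8.09 on chip A at 13.5 d.p.c., and 0 arrays were duplicates of another. The median SD over pools of a genotype was 0.077 at the youngest age, 0.131 in hindquarters and 0.0993 in pectoralis, on the log2 scale. Among hindquarters, Mstn-null pool 5 was low in liver transcripts (mean marker level 9.33, the other Mstn-null pools 12.44 to 13.15, wild-type pools 11.99 to 13.7), and the chip B array of wild-type pool 1 lay farther from the mean of its group (median absolute log2 difference 0.236) than any other chip B array of that age (0.0581 to 0.108). Results at this age are therefore also given without these pools. On chip A the array of Mstn-null pool 4 lay farthest from the mean of its group (0.181, the other chip A arrays of that age 0.0654 to 0.129). Mstn-null pool 4 was left out only on its own. Muscle markers were high in the d35 pools of both genotypes (12.3 to 12.43 in Mstn-null and 12.29 to 12.37 in wild-type). In such bulk samples, fewer cells of a type and less RNA per cell cannot be told apart. All differences are Mstn-null minus wild-type on the log2 scale, so a negative value means a lower level in Mstn-null. The study's own fold changes run the other way. Errors of differences are standard errors from limma, SD is over 5 pools, and a difference is called where its q-value, the false discovery rate over all probe sets, is under 0.05.

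**Figure D1:**
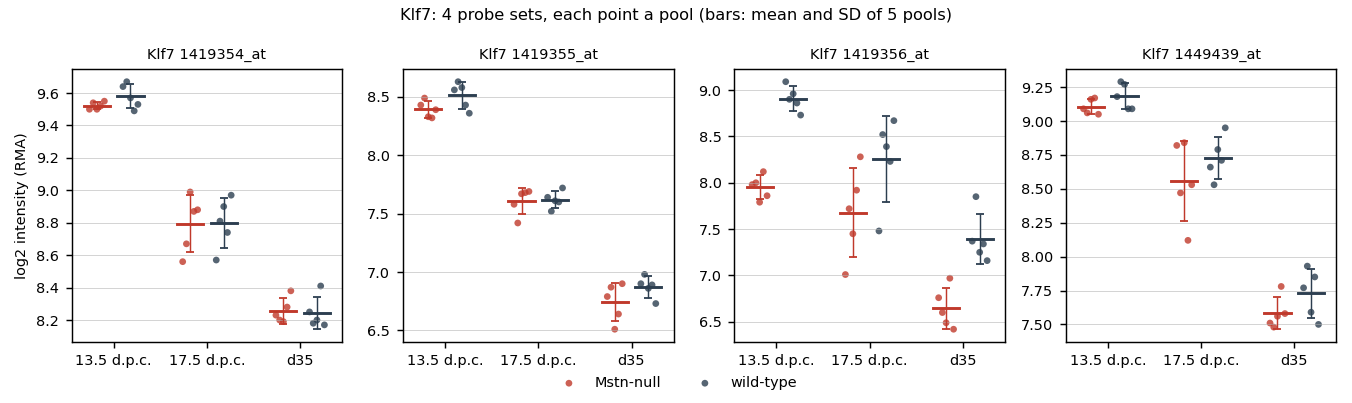
Log2 intensity (y axis) of the 4 Klf7 probe sets at each age (x axis), 1 point per pool, with the mean and SD of 5 pools for Mstn-null (left, red) and wild-type (right, dark). 1419356_at separates the genotypes in embryos and in d35 pectoralis, while the other 3 probe sets overlap at every age.

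Klf7 read lower in Mstn-null at 1 of its 4 probe sets, 1419356_at, in the embryo and again in d35 muscle, while the other 3 probe sets differed by -0.17 to 0.02 over the 3 ages. At 13.5 d.p.c., 1419356_at stood at 7.98, 8.0, 7.79, 8.12 and 7.86 in Mstn-null embryos, against 9.09, 8.90, 8.96, 8.86 and 8.73 in wild-type embryos. Every Mstn-null pool was below every wild-type pool. The means were 7.95 (SD 0.126) in Mstn-null and 8.91 (SD 0.13) in wild-type, a difference of -0.96 ± 0.07, or 0.515-fold, which ranked 3 by size among all probe sets at this age. The other 3 Klf7 probe sets differed by -0.12 to -0.06 there, and their genotypes overlapped.

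At 17.5 d.p.c., 1419356_at was spread widely in both genotypes. It stood at 7.01, 7.72, 7.45, 7.92 and 8.28 in Mstn-null hindquarters, against 7.48, 8.52, 8.39, 8.23 and 8.67 in wild-type hindquarters. The genotypes overlapped, and the difference of -0.58 ± 0.26 (95% interval -1.15 to -0.02; 0.667-fold; n = 5 pools each) did not pass the threshold (limma q = 1). With 1 pool left out the difference ranged from -0.78 to -0.42 and was not called. Without Mstn-null pool 5 and wild-type pool 1 the difference was -0.93 and still not called (limma q = 1). These were the highest Mstn-null and the lowest wild-type pool at this probe set, so leaving both out widened the difference. Wild-type pool 1 had been set apart by its chip B array, whereas this probe set is on chip A.

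At d35 the genotypes were apart again, with a narrower spread. The probe set 1419356_at stood at 6.76, 6.6, 6.49, 6.97 and 6.42 in Mstn-null pectoralis, against 7.37, 7.85, 7.25, 7.34 and 7.16 in wild-type pectoralis, with no overlap. The means were 6.65 (SD 0.219) in Mstn-null and 7.39 (SD 0.27) in wild-type, a difference of -0.75 ± 0.13 (0.596-fold, limma q = 0.00486). The call held in all 18 alternatives run, with q from 0.0031 to 0.0185. The other 3 Klf7 probe sets differed by -0.15 to 0.02 at this age (limma q from 0.243 to 0.592) and overlapped.

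Relative to the array median, 1419356_at lay at -0.11 in Mstn-null and 0.84 in wild-type embryos, at -0.14 in Mstn-null and 0.43 in wild-type hindquarters, and at -0.25 in Mstn-null and 0.49 in wild-type pectoralis. The Mstn-null level thus stayed close to the middle of the chip at each age, and the wild-type level lay above it. The platform annotation ties all 4 Klf7 probe sets, which sit on chip A, to the same source sequence. Whether the probes of 1419356_at lie over a sequence that differs between the chromosomes of the 2 genotypes was not tested. RNA integrity was read from the actin and Gapdh controls, as 3' signal minus 5' signal on chip A. For actin in embryos this ranged from 0.201 to 0.346 for Mstn-null and from 0.0677 to 0.214 for wild-type. For actin in d35 pectoralis it ranged from 0.0599 to 0.211 for Mstn-null and from 0.134 to 0.579 for wild-type. Gapdh ranged from 0.213 to 0.321 in Mstn-null and from 0.0598 to 0.289 in wild-type embryos. In d35 pectoralis Gapdh ranged from 0.0024 to 0.157 for Mstn-null and from 0.0411 to 0.175 for wild-type. Neuron markers, a cell type in which Klf7 is known to act, had a mean of 9.87 to 10.04 in Mstn-null and 9.98 to 10.09 in wild-type embryos. The part of these measures in the Klf7 difference was not tested.

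**Figure D2:**
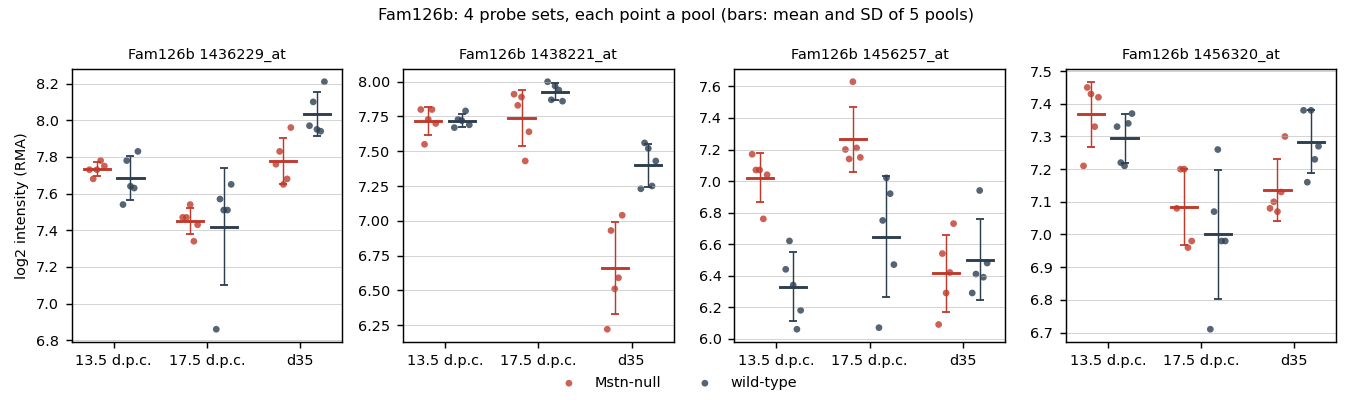
Log2 intensity (y axis) of the 4 Fam126b probe sets at each age (x axis), 1 point per pool, with the mean and SD of 5 pools for Mstn-null (left, red) and wild-type (right, dark). 1456257_at is higher in Mstn-null at both embryonic ages and overlaps at d35, where 1438221_at is lower in Mstn-null.

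Fam126b differed at other probe sets in the embryo than in d35 muscle. In embryos and hindquarters, 1456257_at read higher in Mstn-null, though without a call in hindquarters, whereas in d35 pectoralis 1438221_at and 1436229_at were lower. At 13.5 d.p.c., 1456257_at stood at 7.17, 7.07, 7.07, 6.76 and 7.04 in Mstn-null embryos, against 6.44, 6.62, 6.34, 6.06 and 6.18 in wild-type embryos. The genotypes did not overlap, and the difference was 0.69 ± 0.09, or 1.62-fold. The other 3 Fam126b probe sets differed by 0.00 to 0.07 at this age and overlapped. On chip B, which carries this lead and those of Ppil3 and Nif3l1, the 3' minus 5' actin signal in embryos was 0.29 to 0.318 for Mstn-null and 0.16 to 0.234 for wild-type, without overlap. That of Gapdh overlapped, at 0.235 to 0.298 for Mstn-null and 0.226 to 0.267 for wild-type. The part of these signals in these 3 differences was not tested.

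At 17.5 d.p.c., 1456257_at stood at 7.20, 7.14, 7.63, 7.21 and 7.15 in Mstn-null hindquarters, against 6.07, 6.75, 7.02, 6.92 and 6.47 in wild-type hindquarters. No pools overlapped, and the difference of 0.62 ± 0.17 (1.54-fold, 95% interval 0.24 to 1.0) had all 5 Mstn-null pools above every wild-type pool. It was not called across all probe sets (limma q = 1, unadjusted p = 0.00403). Without wild-type pool 1, the lowest of its group, the difference was 0.47, and without this pool and Mstn-null pool 5 it was 0.50.

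At d35 the same probe set read 6.09, 6.54, 6.29, 6.42 and 6.73 in Mstn-null and 6.29, 6.41, 6.94, 6.39 and 6.48 in wild-type pectoralis. The genotypes overlapped, with a difference of -0.09 ± 0.13 (95% interval -0.36 to 0.19, limma q = 0.494). Another Fam126b probe set, 1438221_at on chip A, read 6.22, 6.93, 6.51, 6.59 and 7.04 in Mstn-null and 7.23, 7.56, 7.52, 7.25 and 7.43 in wild-type pectoralis. It did not overlap, and its difference of -0.74 ± 0.13 (0.599-fold) was called (limma q = 0.00666), and was so in all 18 alternatives, at q up to 0.0497.

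The probe set 1436229_at read 7.76, 7.83, 7.65, 7.68 and 7.96 in Mstn-null and 7.97, 8.10, 7.95, 7.94 and 8.21 in wild-type pectoralis. The genotypes overlapped by a narrow margin, and the difference of -0.26 ± 0.07 (0.835-fold, limma q = 0.0438) lost its call in 12 of 18 alternatives, among them 8 of the 10 that left out 1 pool, with q up to 0.106 there. The last Fam126b probe set, 1456320_at, differed by -0.15 ± 0.06 (limma q = 0.137). All 4 Fam126b probe sets were thus below wild-type on average at d35, by -0.74 to -0.09, and 2 of them were called. At 13.5 d.p.c., 1438221_at and 1436229_at differed by 0.00 and 0.05.

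At d35 markers of fat cells moved with the genotype. The mean of 4 measured adipocyte markers was 8.73 to 9.67 in Mstn-null pectoralis and 9.59 to 9.86 in wild-type pectoralis, and 5 of 7 marker probe sets were called lower in Mstn-null. Among the Mstn-null pools, pool 1 was lowest in these markers (8.73) and pool 5 highest (9.67). Pool 1 read 6.76 and pool 5 read 6.42 at Klf7 1419356_at, and at Fam126b 1438221_at they read 6.22 and 7.04. The part of fat cells in the differences was not tested.

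**Figure D3:**
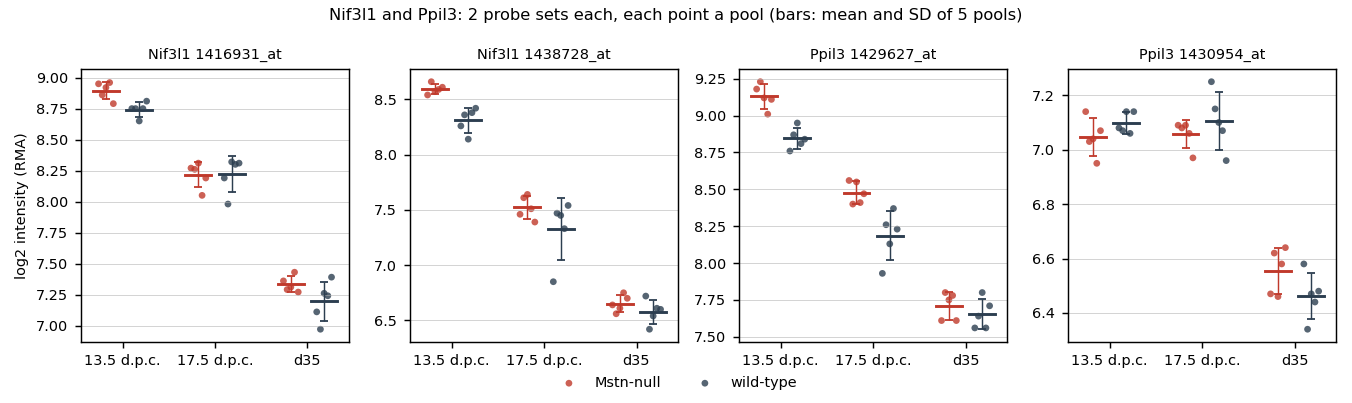
Log2 intensity (y axis) of 2 Nif3l1 and 2 Ppil3 probe sets at each age (x axis), 1 point per pool, with the mean and SD of 5 pools for Mstn-null (left, red) and wild-type (right, dark). Ppil3 1429627_at is higher in Mstn-null without overlap at both embryonic ages, and Nif3l1 1438728_at at the younger of them.

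Ppil3 and Nif3l1, the neighbours whose 5' ends overlap, were each higher in Mstn-null embryos at 1 of 2 probe sets. Ppil3 1429627_at stood at 9.18, 9.23, 9.12, 9.01 and 9.11 in Mstn-null embryos, against 8.76, 8.87, 8.95, 8.81 and 8.84 in wild-type embryos. All Mstn-null pools were higher than all wild-type pools, with a difference of 0.28 ± 0.05 (1.22-fold). In hindquarters at 17.5 d.p.c. it stood at 8.56, 8.40, 8.55, 8.41 and 8.47 in Mstn-null, against 7.93, 8.26, 8.13, 8.37 and 8.23 in wild-type. Again no pools overlapped, the difference was 0.29 ± 0.08 (95% interval 0.12 to 0.47), and it was not called across all probe sets (limma q = 1, unadjusted p = 0.00367). Without wild-type pool 1 it was 0.23. In d35 pectoralis it ranged from 7.61 to 7.80 in Mstn-null and from 7.56 to 7.80 in wild-type, a difference of 0.06 ± 0.06 (95% interval -0.08 to 0.19, limma q = 0.442). The other Ppil3 probe set, 1430954_at, differed by -0.05 in embryos, -0.05 in hindquarters and 0.09 in pectoralis, and its genotypes overlapped at each age.

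Nif3l1 1438728_at stood at 8.54, 8.66, 8.57, 8.59 and 8.61 in Mstn-null embryos, against 8.26, 8.36, 8.14, 8.38 and 8.42 in wild-type embryos. The genotypes did not overlap, and the difference was 0.28 ± 0.05 (1.21-fold). Its other probe set, 1416931_at, differed by 0.15 ± 0.04 in the same direction with overlapping pools (8.79 to 8.96 in Mstn-null and 8.65 to 8.81 in wild-type). At 17.5 d.p.c., 1438728_at differed by 0.19 ± 0.12 (limma q = 1), and by 0.07 without wild-type pool 1, which at 6.85 was the lowest pool of either genotype. At d35 it differed by 0.08 ± 0.06 (limma q = 0.356), and 1416931_at by 0.14 ± 0.07 (limma q = 0.219).

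The 3 Cavin2 probe sets had differences of the same sign at each of the later ages. In embryos its 3 probe sets differed by -0.14 to 0.03. In hindquarters all 3 were higher on average in Mstn-null, by 0.18, 0.27 and 0.26 for 1416778_at, 1416779_at and 1443832_s_at, with overlapping pools. Without Mstn-null pool 5 and wild-type pool 1 these were 0.16, 0.13 and 0.12, and without wild-type pool 1 alone 1416779_at was 0.12. In d35 pectoralis all 3 were lower on average, by -0.27, -0.22 and -0.17. Of these only 1416778_at had no overlap, at 9.91, 10.01, 9.75, 9.83 and 9.98 in Mstn-null and 10.22, 10.06, 10.21, 10.27 and 10.06 in wild-type pectoralis. The pools nearest to each other were 10.01 in Mstn-null and 10.06 in wild-type. The probes of an _s_at set can be shared by several transcripts. Markers of endothelial cells, which are rich in caveolae, were also lower on average at d35, with means of 7.83 to 8.01 in Mstn-null pectoralis and 8.05 to 8.26 in wild-type pectoralis, and 2 of 6 probe sets called lower. Their part and that of the adipocyte markers in the Cavin2 values was not tested.

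**Figure D4:**
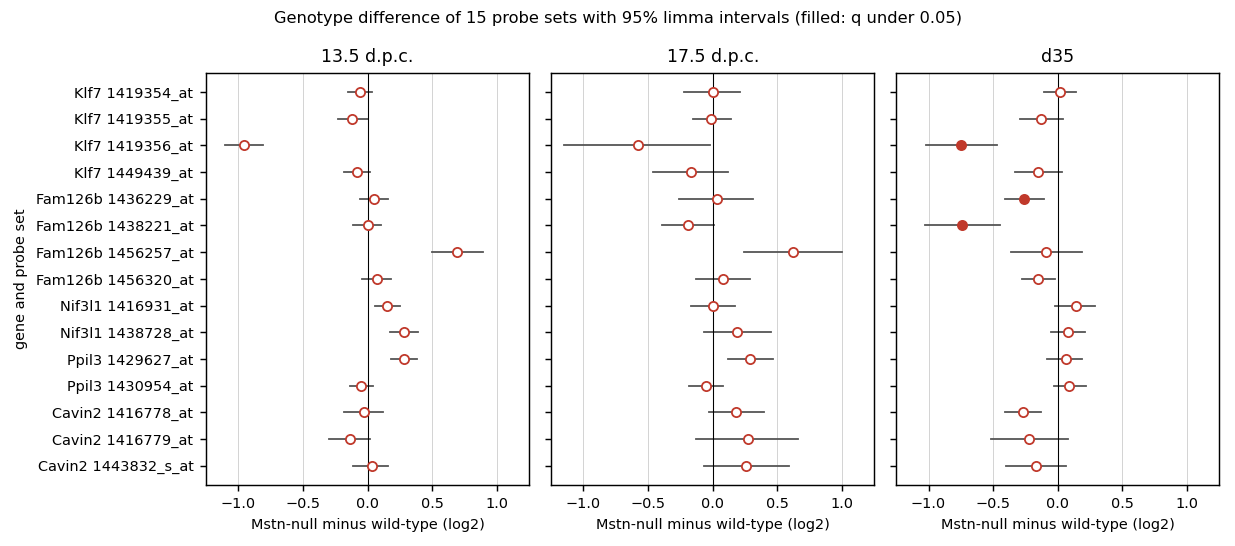
Difference between genotypes (x axis, Mstn-null minus wild-type, log2) with its 95% limma interval for the 15 probe sets (y axis) at each age. Filled points passed q under 0.05 among the probe sets tested, which were 1419356_at of Klf7 and 1436229_at and 1438221_at of Fam126b, all at d35, while 13.5 d.p.c. and Cavin2 were not tested.

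Counted together, the probe sets gave a few separated values among many that overlapped. At 13.5 d.p.c. the genotypes did not overlap at 4 of 15 probe sets, as was the case for 2.4% of all probe sets, and nothing is read from that count because this contrast chose the genes. In hindquarters, 0 of 12 tested probe sets were called by limma, against 0% of all probe sets, and likewise 0 with Benjamini-Hochberg adjustment, while 3 had an unadjusted p under 0.05, against 2.43% of all. The genotypes did not overlap at 2 of 12, both higher in Mstn-null, against 0.535% of all in either direction and 0.204% higher. At d35, 3 of 12 were called, all lower in Mstn-null, against 4.58% of all probe sets in either direction and 2.5% called lower. The genotypes did not overlap at 2 of 12, both lower, against 5.25% of all in either direction and 2.48% lower. These counts come from genes listed with the results known. The median absolute difference of the 12 was 0.127 in hindquarters and 0.133 in pectoralis, beside 0.054 and 0.0656 over all probe sets.

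The gap between a lead probe set and the others of its gene was then compared between genotypes, pool by pool. The later ages were tested by an exact two-sided permutation test over all splits of the 10 pools into 5 and 5, with Benjamini-Hochberg adjustment over 8 tests and a smallest possible p of 0.0079. For Klf7 at d35 the lead lay -0.88 (SD 0.225) from the mean of the other 3 in Mstn-null and -0.22 (SD 0.214) in wild-type, a difference of -0.66 without overlap (exact p = 0.0079, adjusted 0.0212). At 17.5 d.p.c. the Klf7 gap differed by -0.52 with overlap (exact p = 0.13, adjusted 0.203). For Fam126b at 17.5 d.p.c. the lead lay at -0.16 (SD 0.182) in Mstn-null and -0.80 (SD 0.263) in wild-type, a difference of 0.65 without overlap (exact p = 0.0079, adjusted 0.0212). At d35 the Fam126b gap differed by 0.29 (exact p = 0.048, adjusted 0.0952), and by 0.39 without wild-type pool 3 (exact permutation, adjusted p = 0.0159). Against the other probe sets of the lead's own chip alone it differed by 0.12 (exact permutation, adjusted p = 0.505). The lead itself differed by only -0.09 at d35, so this gap reflects the other 3 probe sets, which differed by -0.74 to -0.15.

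For Ppil3 at 17.5 d.p.c. the gap between the probe sets was 1.42 (SD 0.0762) in Mstn-null and 1.08 (SD 0.252) in wild-type pools, a difference of 0.34 (exact p = 0.0079, adjusted 0.0212). This call was lost whenever a Mstn-null pool was left out, where the adjusted exact p was at least 0.0635. The difference was then 0.32 to 0.36, and the genotypes still did not overlap. With all pools the gap ranged from 1.32 to 1.49 in Mstn-null and from 0.67 to 1.29 in wild-type. The gap of Nif3l1 did not pass at 17.5 d.p.c. (0.20; exact p = 0.21, adjusted 0.286) or at d35 (-0.06; exact p = 0.46, adjusted 0.526), and that of Ppil3 did not at d35 (-0.04; exact p = 0.66, adjusted 0.659). The gaps of Klf7 in pectoralis and of Fam126b in hindquarters thus passed among these tests, and so did that of Ppil3 in hindquarters with all pools kept. Each passing exact p was the smallest possible one, which any gap without overlap reaches. The genes were listed with the results known, and in hindquarters the leads of Fam126b and Ppil3 were not called over all probe sets. For Cavin2 the gap differed by 0.05 in hindquarters and 0.00 in pectoralis.

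Whether the genotype difference itself changed between hindquarters at 17.5 d.p.c. and pectoralis at d35 was tested as an interaction in a fit of all 30 pools. Of the 12 probe sets 0 passed (limma, Storey q under 0.05), against 0.715% of all probe sets, and likewise 0 with Benjamini-Hochberg adjustment, while 5 had an unadjusted p under 0.05, against 11.8% of all. The largest were Fam126b 1456257_at, whose difference was lower by 0.71 at d35 (interaction -0.71, limma q = 0.101), and 1438221_at (interaction -0.55, limma q = 0.0727). Klf7 1419356_at had an interaction of -0.16 (limma q = 0.604). With all pools kept, neither of these Fam126b probe sets passed this test. The difference of 1456257_at was 0.62 in hindquarters and -0.09 in pectoralis, whereas 1438221_at was lower in Mstn-null at both ages (-0.19 and -0.74). The probe set 1438221_at passed without Mstn-null pool 5 of d35 (limma q = 0.0176), Mstn-null pool 2 of d35 (0.0434) or Mstn-null pool 4 of 17.5 d.p.c. (0.0269). The last of these is the pool whose chip A array lay farthest from its group, and this probe set is on chip A. Without wild-type pool 3 of 17.5 d.p.c., 1456257_at passed (limma q = 0.0479). For Cavin2 the same contrast, given as a description, was -0.45, -0.49 and -0.43 at its 3 probe sets.

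**Figure D5:**
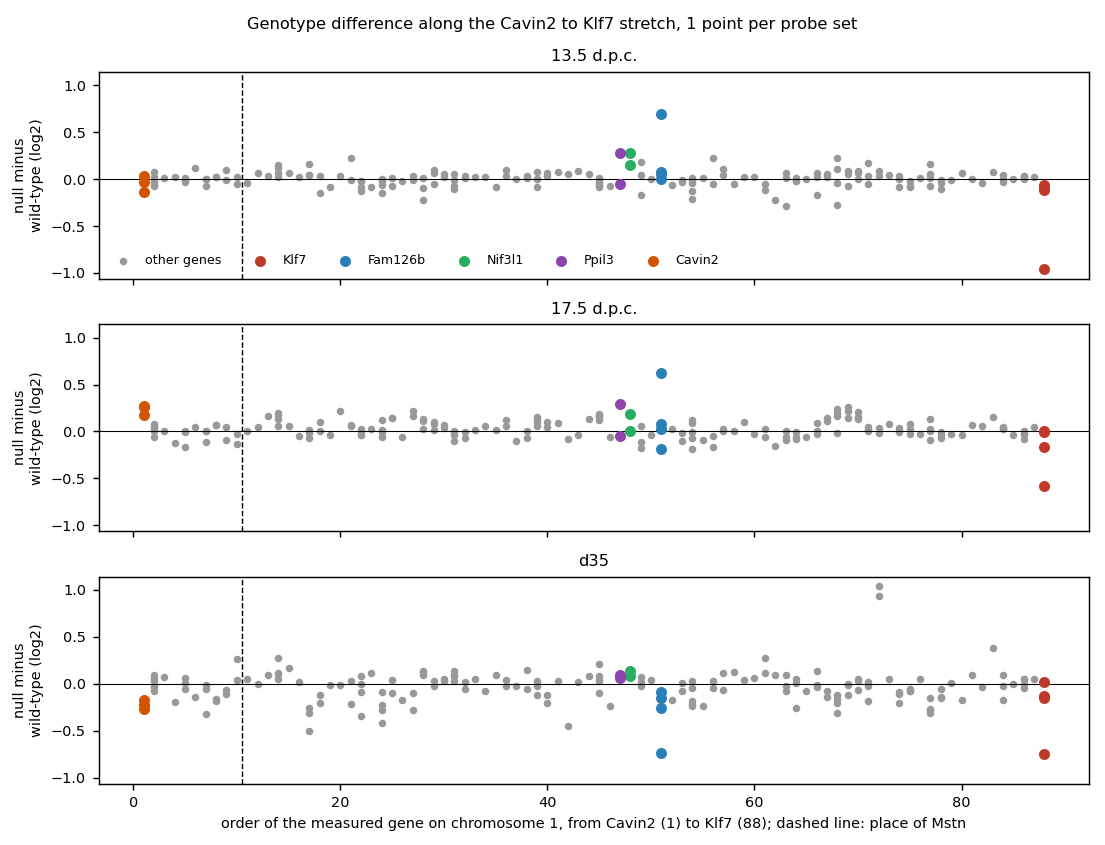
Difference between genotypes (y axis, Mstn-null minus wild-type, log2) for each probe set of the 88 measured genes from Cavin2 to Klf7 in chromosomal order (x axis), at each age. Coloured points are the 5 genes, grey points the others, and the dashed line is the place of Mstn. At 13.5 d.p.c. the coloured points without overlap between genotypes are the lead probe sets of Klf7 (-0.96), Fam126b (0.69), Ppil3 and Nif3l1 (0.28 each). Of the grey points 4, or 2.35%, also had no overlap, against 2.4% of all probe sets, and the grey points reach -0.29. The coloured genes other than Cavin2 were chosen on this age, so no contrast in size is read.

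The stretch of chromosome 1 from Cavin2 to Klf7 holds 226 genes in the reference, of which 88 were measured by 185 probe sets. Apart from the 5 genes, 170 probe sets of 83 genes remained. At 13.5 d.p.c. 0 of these 170 were called by limma, where 0.54% of all probe sets were, but the genes called in this stretch at that age are those that were taken out, so the 0 follows from the choice. Of the 170, 27 had an unadjusted p under 0.05, against 11.3% of all probe sets, and their median absolute difference was 0.0397, beside 0.043 over all. In hindquarters, too, 0 of 170 were called (1 with an unadjusted p under 0.05), with a median absolute difference of 0.0614 beside 0.054. The largest difference among them at 13.5 d.p.c. was -0.29, for Bmpr2 1419616_at, a receptor of bone morphogenetic proteins. At 17.5 d.p.c. it was 0.26, for Cyp20a1 1430452_at. The genes taken out, except Cavin2, were chosen for their differences, so no contrast in size with them is read. Orc2, a subunit of the origin recognition complex that lies between Nif3l1 and Fam126b, differed by -0.17, 0.04 and 0.18 at its 3 probe sets in embryos, and only the first of these, 1418225_at, had no overlap.

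At d35, 12 of the 170 were called, or 7.06%, 9 lower and 3 higher in Mstn-null, where 2.5% of all probe sets were called lower and 2.08% higher. The 6 with the smallest q began with Cd28, the costimulatory receptor of T cells, which was higher at both of the probe sets named. Cd28 1437025_at averaged 8.20 in Mstn-null and 7.16 in wild-type pectoralis (1.04 ± 0.10, limma q = 7.93e-05), and Cd28 1417597_at 6.41 in Mstn-null and 5.47 in wild-type (0.94 ± 0.24, limma q = 0.0356). Aox1, an aldehyde oxidase, was lower (-0.45 ± 0.08, limma q = 0.00632), as was 1 of 2 probe sets of Hspe1, a mitochondrial chaperonin (1450668_s_at, -0.28 ± 0.05, limma q = 0.00747), while the other, 1422579_at, differed by -0.10 (limma q = 0.3). Zdbf2, an imprinted gene, was higher (0.38 ± 0.08, limma q = 0.0121), and Nrp2, a semaphorin receptor, was lower at 1426528_at (-0.27 ± 0.07, limma q = 0.0321). The other Nrp2 probe sets, 1435349_at, 1447343_at and 1456778_at, are not given here, so no shift of its whole transcript is read. With the probe sets of the 5 genes included, 16 of 185 had a q under 0.05. That count holds 4 probe sets of genes chosen on these data, among them Cavin2 1416778_at, which is otherwise given without a test. It went down to 8 with Benjamini-Hochberg adjustment and to between 6 (without wild-type pool 3) and 14 when 1 pool was left out.

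The families of these genes were read at the same ages. Of 15 measured Krüppel-like factors other than Klf7, with 42 probe sets, 0 probe sets were called at 17.5 d.p.c. and 2 at d35, a share near the 4.58% of all probe sets called at that age. Klf3, a transcriptional repressor, was lower at 1 of its 7 probe sets, 1454666_at, with 7.61 (SD 0.121) in Mstn-null and 8.10 (SD 0.148) in wild-type pectoralis (-0.49 ± 0.08, limma q = 0.00326). Klf5, an activator of fat cell differentiation and smooth muscle genes, was higher at 1 of its 3 probe sets, 1451021_a_at, with 7.95 (SD 0.213) in Mstn-null and 7.48 (SD 0.124) in wild-type (0.47 ± 0.09, limma q = 0.0118). The median difference over the 42 was -0.02 at d35, beside 0.01 over all probe sets. Of the phosphatidylinositol 4-kinase complex (6 genes, 15 probe sets) and of the nuclear and spliceosomal cyclophilins (7 genes, 10 probe sets), 0 probe sets were called at either later age.

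Of the caveolar genes (8 genes, 17 probe sets), 4 probe sets were called at d35, where 4.58% of all probe sets were, and 0 at 17.5 d.p.c. Higher in Mstn-null were Cavin4, a cavin of muscle (0.43 ± 0.08, limma q = 0.00688), Cav3, a caveolin of muscle (0.43 ± 0.08, limma q = 0.00798), and 1 of 3 probe sets of Pacsin3, a membrane-bending protein (1416995_at, 0.33 ± 0.06, limma q = 0.0106). The other Pacsin3 probe sets differed by 0.15 (limma q = 0.0822) and 0.14 (limma q = 0.132). Cav2, the caveolin partner of Cav1 in endothelial and fat cells, was lower at 1417327_at (-0.34 ± 0.08, limma q = 0.0296), and its other probe set differed by -0.01 (limma q = 0.623). The median over the 17 was -0.01, beside 0.01 over all.

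Likeness to the lead probe sets was measured by Pearson's r over the 30 pools after the mean of each age was subtracted, as a description. Probe sets read on the same pools and chip share RNA and preparation, and genotype differences enter r. The closest genes are the highest among all probe sets with a single symbol, and the leads were chosen for their genotype difference. No ranking against the other probe sets of a gene is therefore read from r. The lead of Klf7 had r of 0.38, 0.43 and 0.29 with its own other probe sets. Its 3 closest genes were Oga (0.80), Setd1a (0.79) and Chst15 (0.76). Its lowest were Lancl1 (-0.72), which is on chromosome 1, Ipo5 (-0.71) and Psmb5 (-0.70). The lead of Fam126b had r of 0.81 with the lead of Ppil3, 0.62 with that of Nif3l1 and 0.10 to 0.53 with its own other probe sets. Beyond these genes it was closest to Plaat3 (0.81), Yif1b (0.74) and Sf3b5 (0.73). Its lowest were Atg4b (-0.73) and Ildr2 (-0.70), which are on chromosome 1, and Tulp3 (-0.69). Yif1b (0.77) and Sf3b5 (0.75) were also among the 3 closest to the lead of Ppil3, with Zfp783 (0.76), and the lowest there were Snap91 (-0.74), Ccr9 (-0.73) and Cabin1 (-0.72). The lead of Nif3l1 was closest to Nufip2 (0.82), Fkbp14 (0.81) and Tatdn1 (0.81). The lead of Cavin2, 1416779_at, was closest to Prkg1 (0.83), Wwtr1 (0.79) and Gpat3 (0.78), and had r of 0.58 and 0.72 with its own other probe sets.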

How the data were processed

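The authors normalized the arrays by RMA with the R package affy (versions not given in the sources used here), and the deposited values are log2 intensities from 2.78 to 15.3. The 64 control probe sets of each chip were left out. For 100 probe sets printed on both arrays the MOE430A value was used, leaving 45037. The 60 arrays were assigned to 30 pools by their titles. As in the study's methods, genotypes were compared within each age by limma (version 3.58.1, R 4.3.3), using lmFit followed by eBayes. Storey q-values were computed over all probe sets by own code (lambda 0.05 to 0.95 in steps of 0.05, threshold 0.05). Precision rests on 5 pools per genotype and age, and intensities carry no counting depth. Pools are labelled as biological replicates.

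The members and lists were chosen with earlier results of these data known. Named are all probe sets of the 5 genes, called probe sets of related lists (up to 4 per list and age) and of the chromosomal stretch (up to 6 per age), and the 3 probe sets most and least alike each lead, with Bmpr2, Cyp20a1 and Orc2 named after their values were seen. Marker lists covered muscle, adipocyte, endothelial, neuron, liver, erythroid, fibroblast and macrophage genes. At d35 these had 3, 5, 2, 1, 0, 0, 0 and 0 probe sets called, and at 17.5 d.p.c. 0 in every list. Gene order and promoters came from RefSeq GRCm38.p6.

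On simulated data with 45037 probe sets, 60% of 50 probe sets changed by 1.5-fold were recovered at 17.5 d.p.c. and 94% at d35. The simulated noise was independent between probe sets, and changes of 1.25-fold to 4-fold were planted together. The measured pools of 17.5 d.p.c. gave 0 calls, so these shares may overstate recovery in the measured data. Alternatives covered p-value adjustment, chips apart, a filter on dim probe sets, quantile normalization, limma trend and robust options, a single fit, replicate blocks, pools left out and the choice of comparison probe sets. Figures were drawn with matplotlib 3.10.9 in Python 3.11.15.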

Additional observations from a re-analysis of the deposited data

Results flagged for a closer look

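Of 90 groups of 5 pools examined, 5 held a pool far from the other 4 by Dixon's criterion, where chance gives about 1 in 20. At Fam126b 1436229_at, wild-type pool 1 of 17.5 d.p.c. read 6.86, below the next pool at 7.51, and this is the pool whose chip B array stood apart from its group. At Fam126b 1456257_at, Mstn-null pool 3 of 17.5 d.p.c. read 7.63, above the next pool at 7.21. At Fam126b 1456320_at, Mstn-null pool 5 of d35 read 7.30, above the next at 7.13. At Ppil3 1430954_at, Mstn-null pool 5 of 17.5 d.p.c., the pool low in liver transcripts, read 6.97, below the next at 7.06. At Cavin2 1443832_s_at, Mstn-null pool 1 of 17.5 d.p.c. read 9.22, below the next at 9.82.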

How the results depend on the processing

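Over the 15 probe sets, 17 alternatives were run at 13.5 d.p.c. and 18 at 17.5 d.p.c. and d35. Of 810 values of tested probe sets, gaps and interactions under an alternative, 750 kept their direction and side of the threshold, 17 lost a call, 5 gained one and 38 changed sign. Of 363 values given without a test (13.5 d.p.c. and Cavin2), 5 changed sign. Of all those that changed sign, 0 had a reported value above 0.2 in size. The number of the 12 tested probe sets called stayed at 0 at 17.5 d.p.c. and between 2 and 3 at d35. The count in the Cavin2 to Klf7 stretch at d35, 16 with the 5 genes included, was 8 with Benjamini-Hochberg adjustment, 4 without wild-type pools 2 and 3 (chosen after seeing the data as highest in adipocyte markers, although the wild-type pools that remain still read 9.59 to 9.68) and 6 to 14 with 1 pool left out, and the interaction count was 0 to 1. The count of called gaps, 3 of 8, was 2 to 4.

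Changes of sign were small. With further quantile normalization at 17.5 d.p.c. they were Klf7 1419354_at (0.01), Klf7 1419355_at (0.02) and Nif3l1 1416931_at (0.01). Without Mstn-null pool 5 and wild-type pool 1 at 17.5 d.p.c., chosen after seeing the data, they were Fam126b 1436229_at (-0.10) and Ppil3 1430954_at (0.01). Without wild-type pools 2 and 3 at d35 they were Klf7 1419354_at (-0.02) and Fam126b 1456257_at (0.03). With 1 pool left out, Klf7 1419354_at ranged from -0.06 to 0.06 and 1419355_at from -0.03 to 0.04 at 17.5 d.p.c., Fam126b 1436229_at from -0.11 to 0.09, Nif3l1 1416931_at from -0.06 to 0.04, and at d35 Klf7 1419354_at from -0.01 to 0.06, Fam126b 1456257_at from -0.17 to 0.02 and the Ppil3 gap from -0.09 to 0.01. The interactions of Klf7 1419354_at, 1419356_at and 1449439_at ranged from -0.04 to 0.08, -0.33 to 0.03 and -0.09 to 0.09, and that of Nif3l1 1438728_at from -0.17 to 0.00. The cause was not tested.

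The labels do not say that a replicate number marks a shared source, and same-numbered pools did not all deviate together, so the pools were not treated as pairs. At 17.5 d.p.c. numbers 1, 3 and 5 correlated at 0.304, 0.388 and 0.485, each correlating best with its own number, while numbers 2 and 4 gave -0.199 and -0.0713, and at d35 the range was -0.172 to 0.139. With the number as a replicate block, 0 of the 12 were called at 17.5 d.p.c., where Klf7 1419356_at stayed at -0.58 with a standard error of 0.103 in place of 0.257 (limma q = 0.709). At d35 3 were called, and calls over all probe sets at d35 went from 2062 to 1854. Over all probe sets, the count at d35 was 1324 with Benjamini-Hochberg adjustment and 638 without wild-type pools 2 and 3.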
